A study of Mus musculus with 5 samples.

Results

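Leukocytes meet microbes, dying cells and antibody-coated targets through large families of surface receptors that come in activating and inhibitory forms. The 61 genes described here are the rows, out of 14462 in the deposited table, whose symbols begin with the names of the C-type lectins (Clec followed by a digit), Siglecs, leukocyte immunoglobulin-like receptors and paired immunoglobulin-like receptors (Lilr, Pira, Pirb), Fc receptors and their relatives (Fcgr, Fcer, Fcrl), the CD300 family, the TREM family and the signal regulatory proteins (Sirp). The rule uses names and no measured value.

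RNA was measured in CD45+ cells, leukocytes by their pan-leukocyte surface protein, sorted from mouse lung. The labels give the tumours of every animal as MC38/MC38 (MC38 is a mouse colon adenocarcinoma line) and the treatment as ctrl for 3 libraries and IR, for irradiation of tumours, for 2. The lungs were taken 3 days after irradiation, and the protocol text, which mentions irradiated tumours, is the same for both groups. The sources used here do not give the strain, sex or age of the mice, the radiation dose, or whether each library came from its own animal. The p-values set the difference between groups against the spread among these libraries. That spread may be technical, so the p-values cannot be extended to other mice.

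Activating receptors of these families have short tails and pair with adaptor proteins such as FcRγ and DAP12, whose tyrosine motifs (ITAMs) recruit the kinase Syk; a few lectins, among them Dectin-1, carry a single tyrosine motif of that kind themselves. Inhibitory receptors carry ITIM motifs, which recruit the phosphatases SHP-1, SHP-2 and SHIP-1 and restrain the signal of neighbouring activating receptors. Neutrophils, monocytes and macrophages carry members of both kinds, and B cells carry a set of their own. By textbook role 31 of the 61 genes were set as activating, 11 as inhibitory and 19 as neither or not assigned.

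The deposited values, labelled read counts, have 1 decimal and were taken as counts scaled across libraries. Their sums were 7232126 to 7425923 in ctrl and 7544034 and 8414753 in IR, and the lowest value above 0 was 0.7 to 0.9 in each library. Ptprc, which encodes CD45 itself, lay between 15543 and 15842 in ctrl and at 17369 and 27247 in IR. Neutrophil markers moved with the group: the summed level of 11 of them was 26570 to 47106 in ctrl and 65048 and 128127 in the IR replicates. By the test 4 of the 11 rose, and 1.14% of all genes tested did. Lung epithelial markers, which the sort should remove, summed to 22551 to 26350 in ctrl and to 116683 and 56545 in IR replicates 1 and 2. Scgb1a1, a secretory product of airway club cells, made up 76.5% to 87.7% of the ctrl sums and 89.1% and 90.2% of the IR sums. Of the 8 markers, 4 had both IR libraries above all ctrl libraries (Scgb1a1, Scgb3a2, Sftpb and Krt18), 1 lay below and 3 overlapped. Among all genes tested 15.2% lay above and 16.3% below. Scgb1a1 and Scgb3a2 rose by the test. Epcam, the general epithelial marker, was the 1 below, at 133.4 to 185.1 in ctrl and 45.8 and 74.8 in IR. Sftpc was among those that overlapped. Among markers of other cells, C1qa, C1qb, Xcr1, Cpa3, Mcpt8, Pf4, Ppbp and Tek were listed at 0 in at least 1 library.

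Of the 61 receptor genes, 55 passed the filter on low values (at least 10 in at least 2 libraries) and 6 did not. These 6 were Clec14a, Clec2g, Clec4a4, Clec4b1, Clec4g and Fcrlb, and Clec4g had their highest value, 30.2 in ctrl replicate 2. Clec1b and Fcrl5 passed through the ctrl libraries alone. With limma, 4 of the 55 genes rose at an adjusted p under 0.05 and 0 fell. Among all 12777 genes tested, 1.50% were called, 1.14% higher and 0.360% lower. The receptor genes that rose were Siglece, Cd300ld, Trem1 and Pirb. The median log2 fold change was 0.48 over the 55 receptor genes and -0.05 over all genes tested.

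At an unadjusted p under 0.05, 19 of the 55 genes were higher and 5 lower, against 7.76% and 7.20% of all genes (15.0% in either direction). In 25 genes both IR libraries lay above all ctrl libraries, and in 10 both lay below; among all genes these shares were 15.2% and 16.3%, or 31.5% together. The second IR library exceeded the first in 40 of the 55 genes and in 6049 of all 12777 genes, which is a smaller share. The count of 4 depends on which libraries are kept. Without IR replicate 1, 19 receptor genes passed, 17 higher and 2 lower, where 3.61% and 4.52% of all genes did (8.13% together). That fit holds a single IR library, the higher of the pair for most receptor genes, and assumes that it varies as the ctrl libraries do; the same assumption holds for the fit without IR replicate 2. One of the 2 lower genes, Clec1b, had passed the filter through ctrl alone, where it is high. The limma count was 0 in each of the fits that omit ctrl replicate 1, ctrl replicate 2 and IR replicate 2, with 20, 21 and 12 genes at an unadjusted p under 0.05; the shares of all genes called were then 0.153%, 0.185% and 0.767%. Without ctrl replicate 3 the count was 3, and the share of all genes 0.768%.

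Siglece encodes Siglec-E, an ITIM receptor for sialic acids on neutrophils and other myeloid cells (chromosome 7, 43651070 to 43660161, GRCm38). Its values were 371.8, 305.1 and 359.1 in ctrl replicates 1 to 3, and 690.8 and 1629.9 in IR replicates 1 and 2. Both IR libraries lay above every ctrl library, and replicate 2 lay far above replicate 1. The IR mean differed by 1.62 ± 0.31 (SE) in log2, adjusted p = 0.00754 by limma. The adjusted p was 0.0706 when ctrl replicate 1 was omitted, 0.104 when ctrl replicate 2 was and 0.185 when IR replicate 2 was.

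Trem1, which pairs with DAP12 and amplifies inflammatory signals of neutrophils and monocytes (chromosome 17, 48232768 to 48246924), stood at 2855.7, 3863.1 and 5041.7 in ctrl and at 7002.1 and 12285.5 in IR. The groups did not overlap. The IR mean differed by 1.28 ± 0.26 (SE) in log2, adjusted p = 0.0250 by limma, and the adjusted p was 0.134 without ctrl replicate 1, 0.116 without ctrl replicate 2 and 0.0921 without IR replicate 2.

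Cd300ld encodes an activating CD300 receptor that pairs with FcRγ (chromosome 11, 114982274 to 114989922). It measured 1317.5, 1613.2 and 1871.8 in ctrl and 2722.0 and 3794.3 in IR, again without overlap. The IR mean differed by 1.02 ± 0.21 (SE) in log2, adjusted p = 0.0157 by limma, with adjusted p of 0.196 without ctrl replicate 1, 0.114 without ctrl replicate 2 and 0.131 without IR replicate 2.

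Pirb encodes PIR-B, the ITIM member of the paired immunoglobulin-like receptors, which binds MHC class I (chromosome 7, 3711409 to 3720391). The 3 ctrl libraries lay close together at 1312.5, 1404.9 and 1328.6, and the IR libraries at 2013.4 and 2899.1. The IR mean differed by 0.84 ± 0.21 (SE) in log2, the smallest difference of the 4 genes (adjusted p = 0.0414 by limma). Of the fits that omit a library, it passed in the one without IR replicate 1 and in no other (adjusted p from 0.144 to 0.357), and it missed the threshold after scaling to library totals (0.0551) or with robust estimation off (0.0564). With no filter on low values none of the 4 passed by limma (adjusted p from 0.0836 to 0.125).

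**Figure D1:**
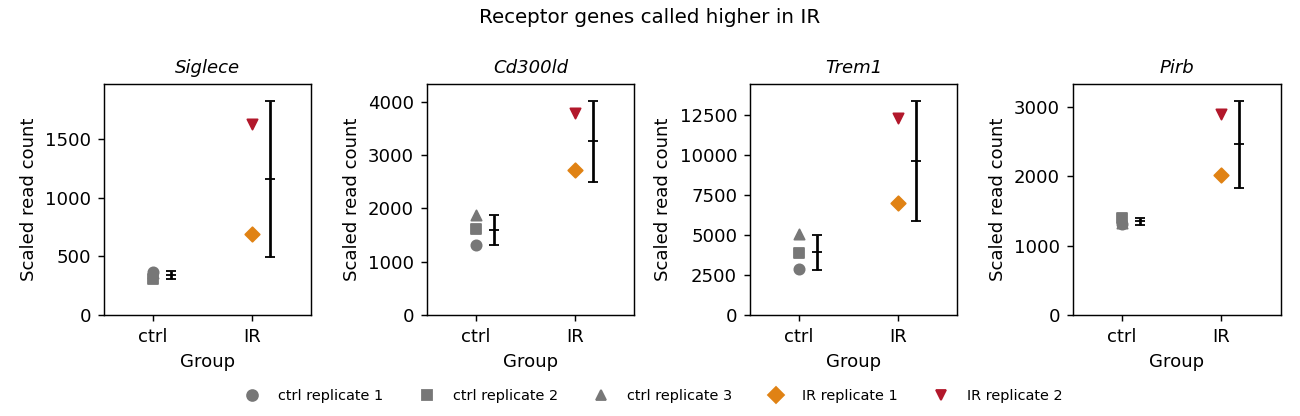
Scaled read counts (y axes, from 0) of the 4 receptor genes called higher in IR, by group (x axes). Points are single libraries and black bars the mean ± SD (ctrl n = 3, IR n = 2); in each gene both IR libraries lie above all ctrl libraries, with IR replicate 2 the higher.

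RefSeq start sites (GRCm38.p6) were available for 49 of the 61 genes, in 56 promoter windows. The 250 bases before each start were searched on both strands for GAGGAAG, a core of sites bound by the myeloid factor PU.1, and for TTGCNNAA, a form of the C/EBP site. GAGGAAG was found in 22 of the 56 windows (39.3%), belonging to 21 genes, and in 10.6% of all 32851 windows of this length. It was found in 13 of 20 genes whose IR libraries lay above ctrl, 2 of 10 whose IR libraries lay below, and 6 of 19 whose groups overlapped, genes under the filter included. The share over all genes with a window was 12.0%, and it was not split by direction. The 13 include Pirb, Lilra6, Pira1 and Pira2, whose windows nearly repeat each other, so these are not separate cases. TTGCNNAA was found in 9 of the 56 windows (16.1%) and in 9.56% of all. In these windows no match of 1 motif overlapped a match of the other, and a match describes letters, not binding.

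The 150 bases before the start are shown for the 4 genes that rose, for Lilra6 because its window nearly repeats that of Pirb, and for the neighbours Fcgr4 and Fcgr2b, an activating and an inhibitory Fc receptor described below. Each reads 5′ to 3′ on the gene's strand with either motif in capitals, and CTTCCTC is GAGGAAG on the other strand.
Siglece (chr7:43660162-43660311, minus strand): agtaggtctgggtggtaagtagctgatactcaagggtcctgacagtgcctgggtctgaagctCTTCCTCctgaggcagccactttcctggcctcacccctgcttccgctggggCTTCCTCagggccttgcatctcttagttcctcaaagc
Trem1 (chr17:48232589-48232738, plus strand): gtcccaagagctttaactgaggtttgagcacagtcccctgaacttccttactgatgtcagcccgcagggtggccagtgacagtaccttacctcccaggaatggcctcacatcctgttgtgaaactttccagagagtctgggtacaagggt
Cd300ld (chr11:114989887-114990036, minus strand): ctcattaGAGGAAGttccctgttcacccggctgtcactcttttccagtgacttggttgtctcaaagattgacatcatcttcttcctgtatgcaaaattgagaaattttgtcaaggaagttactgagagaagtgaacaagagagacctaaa
Pirb (chr7:3720383-3720532, minus strand): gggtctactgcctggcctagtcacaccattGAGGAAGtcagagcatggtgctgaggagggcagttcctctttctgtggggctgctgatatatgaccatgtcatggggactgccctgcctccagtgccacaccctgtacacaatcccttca
Lilra6 (chr7:3915502-3915651, minus strand): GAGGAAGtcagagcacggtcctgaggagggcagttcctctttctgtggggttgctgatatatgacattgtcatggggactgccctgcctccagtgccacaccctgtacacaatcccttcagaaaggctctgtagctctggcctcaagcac
Fcgr4 (chr1:171018776-171018925, plus strand): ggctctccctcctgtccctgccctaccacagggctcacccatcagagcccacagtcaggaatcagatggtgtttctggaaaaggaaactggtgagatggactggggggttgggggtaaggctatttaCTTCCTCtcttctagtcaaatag
Fcgr2b (chr1:170976072-170976221, minus strand): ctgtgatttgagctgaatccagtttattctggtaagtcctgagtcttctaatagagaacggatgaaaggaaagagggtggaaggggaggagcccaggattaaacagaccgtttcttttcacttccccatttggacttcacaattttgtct
The motif begins 88 and 37 bases before the start of Siglece, 143 before that of Cd300ld, 120 before that of Pirb, 150 before that of Lilra6 and 23 before that of Fcgr4. Neither motif occurs in the 150 bases shown for Trem1 and Fcgr2b. Aligned without gaps, Pirb and Lilra6 were identical at 212 of 220 bases (96.4%) of their 250-base windows.

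All 3 TREM genes, a cluster on chromosome 17 whose products pair with DAP12, were higher in both IR libraries than in any ctrl library. Among all genes tested 15.2% were. Trem3, which lies beside Trem1, had values of 132.6, 245.7 and 275.2 in ctrl and 356.1 and 635.5 in IR (1.19 ± 0.37 SE in log2, limma adjusted p = 0.108). Trem2, a lipid receptor of macrophages and microglia, was low throughout, at 4.2, 30.1 and 24.8 in ctrl and 45.8 and 61.4 in IR (limma adjusted p = 0.467). Per kilobase of exon Trem1 averaged 1308 in ctrl and 3219 in IR, and Trem2 4.0 and 10.8.

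Among the C-type lectins 21 genes had a row, 16 were tested and 0 were called by limma, with 4 higher and 2 lower at an unadjusted p under 0.05. Of all genes tested 7.76% were higher and 7.20% lower at that p. The 4 higher lectins were activating lectins on phagocytes. Clec7a encodes Dectin-1, the receptor for fungal beta-glucan, and had the highest level of the family. It measured 2960.5, 3670.4 and 4329.1 in ctrl and 4519.5 and 8128.1 in IR (0.75 ± 0.23 SE in log2, limma adjusted p = 0.115). IR replicate 1 lay just above the highest ctrl library. Clec5a, a DAP12 partner, measured 287.3, 371.8 and 385.4 in ctrl and 455.2 and 937.2 in IR (log2 fold change 0.92 ± 0.31 SE, limma adjusted p = 0.147).

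Clec4e encodes Mincle and Clec4d its partner MCL, neighbours on chromosome 6 that together sense mycobacterial glycolipid through FcRγ. Clec4e stood at 801.2, 1687.2 and 1422.8 in ctrl and 1733.9 and 4209.5 in IR, and Clec4d at 610.2, 1291.7 and 1162.9 against 1393.7 and 2836.9. In both genes IR replicate 1 exceeded ctrl replicate 2 only slightly while IR replicate 2 stood well above it. Their log2 fold changes were 1.12 ± 0.43 and 1.03 ± 0.36 (SE; limma adjusted p = 0.281 and 0.219). Clec4n, which encodes Dectin-2 and lies beside Clec4d, gave 287.3, 355.3 and 402.2 in ctrl and 294.4 and 472.4 in IR, and its groups overlapped (0.11, adjusted p = 0.904). In the fit that omits IR replicate 1, and so has the other IR library alone against ctrl, the lectins Clec4d, Clec4e, Clec5a and Clec7a passed as higher.

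Clec1b, which encodes the platelet and dendritic cell receptor CLEC-2, was low in both IR libraries: 29.6, 24.6 and 106.8 in ctrl and 9.3 and 1.6 in IR (limma adjusted p = 0.239). Clec9a, the dead-cell receptor of cross-presenting dendritic cells whose gene overlaps Clec1b on the same strand, measured 107.3, 51.1 and 71.5 in ctrl and 71.0 and 36.1 in IR. Of the inhibitory lectins tested, Clec4a2 (DCIR) had a ctrl mean of 125.7 ± 60.1 (SD, n = 3) and an IR mean of 217.0 ± 14.4 (SD, n = 2) without overlap, and Clec12a (MICL) 315.0 ± 50.7 and 341.0 ± 65.8 with overlap. Clec16a, an endosomal protein that is no lectin receptor despite its name, was 463.1, 535.3 and 383.3 in ctrl and 231.8 and 288.3 in IR (log2 fold change -0.82 ± 0.30 SE, limma adjusted p = 0.191). Clec1a, Clec2d, Clec2i, Clec4a1, Clec4a3 and Clec10a overlapped between groups, with adjusted p from 0.542 to 0.975.

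In the Siglec family, besides Siglece, the members that mark particular lung cells did not pass. Siglecf, which is abundant on alveolar macrophages and eosinophils, had values of 495.2, 466.8 and 655.6 in ctrl and 459.9 and 690.9 in IR (log2 fold change 0.08, limma adjusted p = 0.922). The median of the 11 alveolar macrophage markers relative to ctrl was -0.69 and -0.25 in the IR libraries. Siglech, a DAP12 partner of plasmacytoid dendritic cells, measured 955.0, 556.3 and 669.4 in ctrl and 714.1 and 853.2 in IR. Siglecg, an ITIM receptor of B cells, was 267.1, 396.5 and 287.6 in ctrl and 194.4 and 193.3 in IR, so that its groups did not overlap (log2 fold change -0.69 ± 0.35 SE, adjusted p = 0.352). Siglec1, the macrophage adhesion receptor sialoadhesin, was 562.9, 556.3 and 558.5 in ctrl and 381.4 and 429.5 in IR (log2 fold change -0.47 ± 0.26 SE, adjusted p = 0.417).

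The paired immunoglobulin-like receptors of chromosome 7 lay higher in IR on both sides of the pair. Besides Pirb, the activating PIR-A genes Pira1, Pira2, Pira12, Pira13 and Lilra6 each had both IR libraries above all ctrl libraries, with log2 fold changes up to 1.57 and limma adjusted p from 0.107 to 0.456. Pira12 measured 144.5, 283.2 and 297.1 in ctrl and 401.9 and 654.8 in IR, and Pira1 47.3, 70.3 and 50.3 against 116.8 and 235.4. These genes are close copies of each other, so reads may be shared among them and the value of any 1 of them is uncertain; Pira2-ps1, a pseudogene of the cluster, reached 50.6 in IR replicate 2. Lilra5, an activating receptor on the same chromosome outside the PIR-A genes, lay lower in both IR libraries (127.6, 130.6 and 179.6 in ctrl, 91.6 and 71.4 in IR, adjusted p = 0.437).

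Among the 7 Fc receptor genes, 0 passed by limma, with 3 higher and 1 lower at an unadjusted p under 0.05. Of all genes tested 7.76% were higher and 7.20% lower at that p. Fcer1g encodes FcRγ, the ITAM adaptor that the activating Fc receptors, PIR-A and several lectins share. Its values were 1551.7, 1198.5 and 1674.0 in ctrl and 2100.4 and 2721.7 in IR (log2 fold change 0.71 ± 0.21 SE, limma adjusted p = 0.0950). Fcgr3, the activating low-affinity IgG receptor, was 1064.0, 1193.9 and 1210.4 in ctrl and 1717.1 and 2160.2 in IR (0.74 ± 0.21 SE, adjusted p = 0.0724). Fcgr4, its neighbour on chromosome 1, was 226.5, 176.3 and 319.0 in ctrl and 319.7 and 497.6 in IR, where IR replicate 1 and ctrl replicate 3 nearly coincided. The inhibitory receptor Fcgr2b of the same cluster was 379.5, 475.9 and 500.1 in ctrl and 413.1 and 380.8 in IR, with overlapping groups (-0.18 ± 0.28 SE, adjusted p = 0.816).

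The ratio of an activating to an inhibitory receptor within a library does not depend on how libraries are scaled. It does depend on the mix of cells where the genes are expressed by different cells. The median log2 fold change was 1.49 for 11 neutrophil markers and -0.56 for 8 B cell markers. The part of the cell mix in these ratios was not tested. Fcgr3 exceeded Fcgr2b by 2.80, 2.51 and 2.42 times in ctrl replicates 1 to 3 and by 4.16 and 5.67 times in IR replicates 1 and 2. The log2 ratio was 0.92 higher in IR. Fcgr4 over Fcgr2b was 0.597, 0.370 and 0.638 in ctrl and 0.774 and 1.31 in IR, a log2 difference of 0.95. Fcgr1, the high-affinity IgG receptor, gave 0.439, 0.130 and 0.264 in ctrl and 0.364 and 0.216 in IR, and overlapped.

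Of 13 activating and inhibitory pairs set, 12 had a row for both genes. Over these 12 the IR libraries lay above ctrl in 4 and overlapped in 8. Some pairs share a gene, as those of Fcgr3 and Fcgr4 share Fcgr2b, so they are not separate cases. The share over other gene pairs was not computed. The other two pairs above ctrl were Clec7a over Clec12a and Sirpb1c over Sirpa, with log2 differences of 0.63 and 0.69. The exact permutation p (two-sided) was 0.1 for Fcgr3, Fcgr4 and Sirpb1c, the smallest that 10 splits of 5 libraries allow, and 0.2 for Clec7a; adjusted over the 12 pairs these were 0.4 and 0.6. Within the CD300 family the ratios of Cd300ld and Cd300lb to Cd300lf differed by -0.07 and -0.38 and overlapped.

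**Figure D2:**
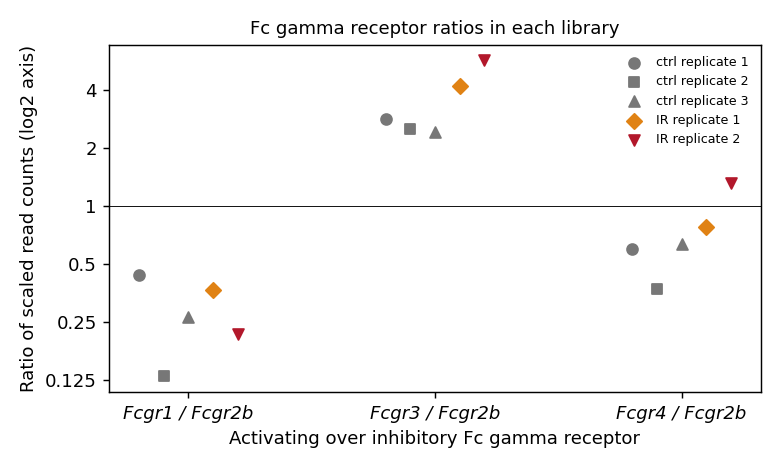
Ratio of the scaled read counts of each activating Fc gamma receptor to the inhibitory Fcgr2b (y axis, log2 scale), 1 point per library. For Fcgr3 and Fcgr4 both IR libraries lie above the 3 ctrl libraries, and for Fcgr1 the groups overlap.

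Fc receptor genes of B cells and of antibody transport had log2 fold changes below 0. Fcer2a, the low-affinity IgE receptor CD23 of B cells, measured 1081.0, 783.8 and 1081.2 in ctrl and 584.2 and 600.1 in IR (log2 fold change -0.71 ± 0.24 SE, limma adjusted p = 0.145). Fcrla, an intracellular Fc receptor-like protein of B cells, was 553.6, 328.8 and 716.3 in ctrl and 259.8 and 182.4 in IR (-1.22 ± 0.34 SE, adjusted p = 0.0682). It passed after scaling to library totals (0.0333), with a pseudocount of 5 (0.0444) and without IR replicate 1 (0.0252). Fcrl5, another receptor of B cells, was 33.0, 13.7 and 22.6 in ctrl and was listed at 0 in both IR libraries (adjusted p = 0.238). Fcrl1 overlapped, at 234.9, 305.1 and 459.2 in ctrl and 186.0 and 445.5 in IR. Fcgrt, the neonatal Fc receptor that recycles IgG, had a ctrl mean of 503.0 ± 74.6 (SD, n = 3) and an IR mean of 387.0 ± 6.5 (SD, n = 2) (adjusted p = 0.569).

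The summed level of 8 B cell markers was 5422 to 9674 in ctrl and 5795 and 4435 in the IR libraries, so the groups overlapped. By the test 1 of the 8, Ebf1, fell, and 0.360% of all genes tested did. Ctrl replicate 2 had the lowest ctrl value of both that sum and Fcer2a, Fcrla and Fcrl5. Other receptor genes of B cells differed: Siglecg was highest in ctrl replicate 2 (396.5), and Fcrl1 was lowest in ctrl replicate 1 (234.9). The part of B cell content in these genes was not tested. In a bulk library fewer cells of a type and less RNA per cell cannot be told apart.

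The CD300 genes form a cluster on chromosome 11, apart from Cd300lg. All 8 were tested, and in 4, Cd300a, Cd300ld, Cd300lf and Cd300lg, both IR libraries lay above ctrl. Among all genes tested 15.2% lay above ctrl and 16.3% below. Cd300a, an ITIM receptor for lipids of dying cells, had nearly the same value in the 3 ctrl libraries, 638.9, 644.0 and 654.8, and 1108.6 and 1201.2 in IR. The groups did not overlap, and neither group spread widely (log2 fold change 0.84 ± 0.23 SE, limma adjusted p = 0.0630). Cd300lf, an ITIM receptor as well, was 644.8, 1086.1 and 1087.0 in ctrl and 1232.0 and 3051.2 in IR (1.09 ± 0.37 SE, adjusted p = 0.200). Cd300e, an activating receptor of monocytes, lay lower, at 156.4, 84.0 and 94.2 in ctrl and 43.0 and 65.5 in IR (adjusted p = 0.428). Cd300c, Cd300c2 and Cd300lb overlapped between groups.

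Sirpa, whose ITIM-bearing product binds the self marker CD47, was among the highest receptor genes and differed little between libraries: 3464.2, 3584.5 and 3316.6 in ctrl and 3344.5 and 4254.9 in IR. The difference in log2 was 0.13 ± 0.19 (SE), adjusted p = 0.801 by limma. Of the DAP12-pairing relatives on chromosome 3, Sirpb1b was 115.7 to 231.4 in ctrl (200 in replicate 2) and 301.9 and 547.2 in IR (1.21 ± 0.39 SE, adjusted p = 0.121), and Sirpb1c was 81.1, 53.0 and 68.6 against 92.5 and 151.3 (adjusted p = 0.527). Sirpb1a overlapped. Sirpd was 81.1, 94.1 and 116.8 in ctrl and 124.3 and 194.2 in IR (adjusted p = 0.542). The Sirpb1 genes are close copies, and reads may be shared among them.

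**Figure D3:**
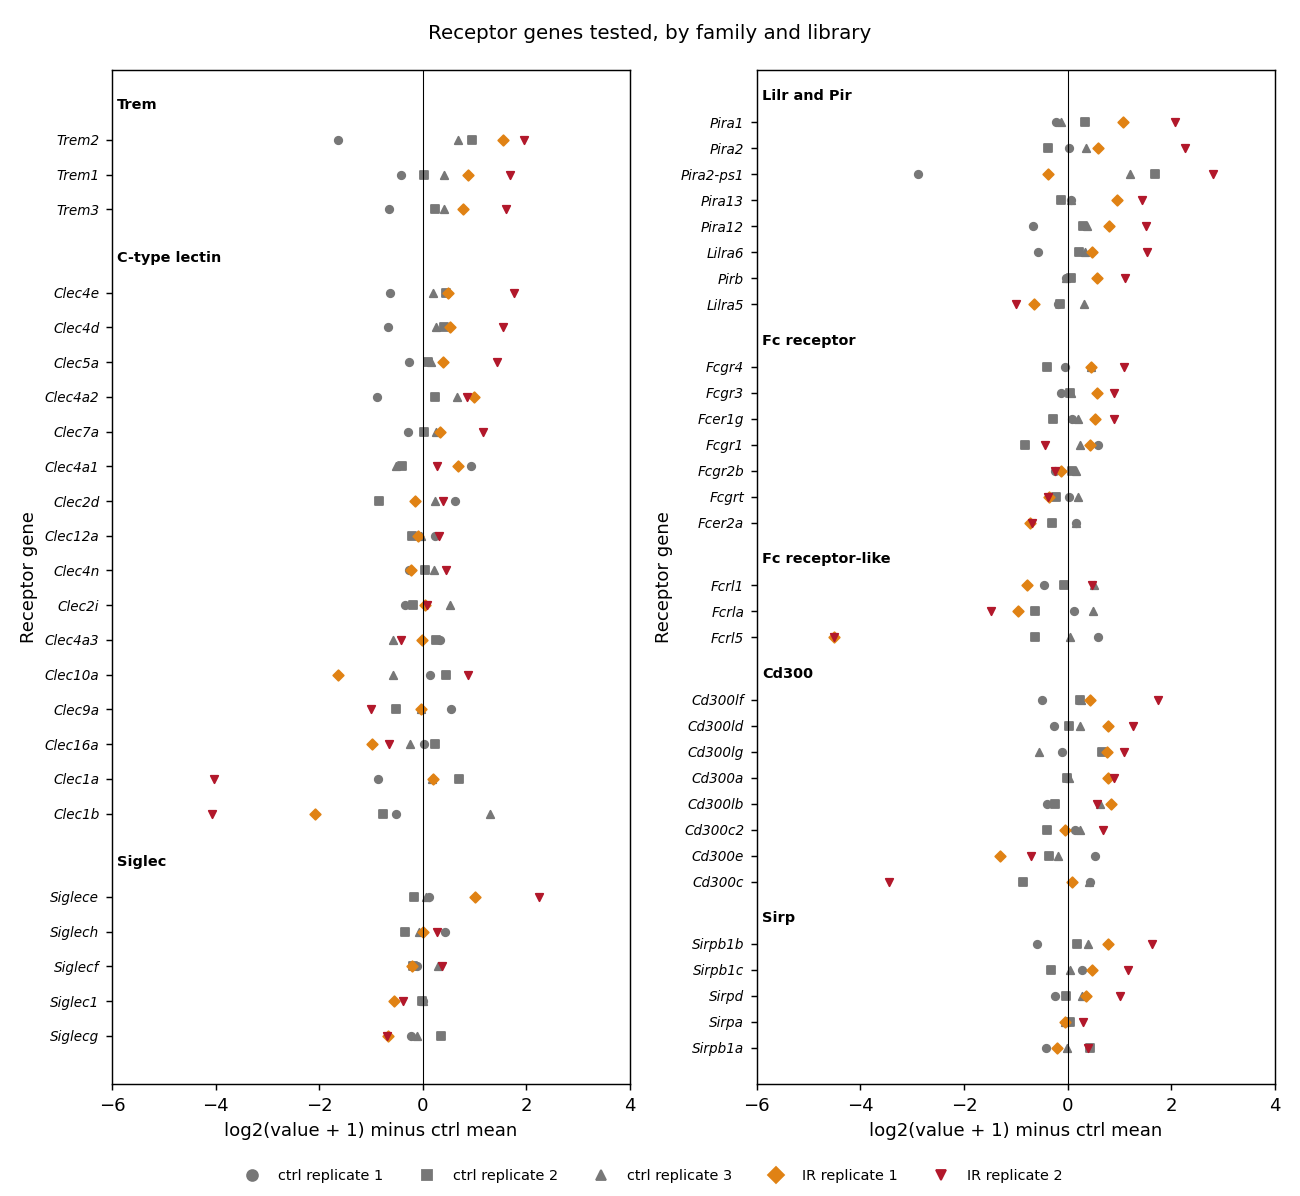
The 55 receptor genes tested, by family, as log2(value + 1) minus the mean of the ctrl libraries (x axis); each point is 1 library. In the TREM family and in most PIR genes both IR libraries stand right of ctrl with IR replicate 2 further out, whereas Fcrla, Fcer2a and Siglecg stand left; both IR values of Fcrl5 are listed at 0.

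By role, 30 activating genes were tested, of which 2 rose (Trem1 and Cd300ld), 0 fell and 28 did not pass; 18 had both IR libraries above ctrl and 3 below. Of 10 inhibitory genes, 2 rose (Siglece and Pirb), 0 fell and 8 did not pass; 5 lay above and 1 below. Among the 15 other genes 0 passed, 2 lay above and 6 below. Of all genes tested 1.14% rose, 0.360% fell, 15.2% lay above and 16.3% below. The 18 activating genes above ctrl include Pira1, Pira2, Pira12, Pira13 and Lilra6. These close copies may share reads, yet each counts here and in the median as a separate gene. The median log2 fold change was 0.76 for activating genes, 0.48 for inhibitory genes and -0.37 for the others. In IR replicate 1 the medians relative to ctrl were 0.47 for activating and 0.19 for inhibitory genes, and in IR replicate 2 they were 1.13 and 0.61, against -0.26 to 0.25 and -0.07 to 0.06 in ctrl. The difference between the roles was not tested.

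The signalling genes downstream were described from lists. Of 16 ITAM adaptors, kinases and effectors, 1 rose, 0 fell and 15 did not pass, with a median log2 fold change of 0.14. Of all genes tested 1.14% rose and 0.360% fell. The gene that rose was Fgr, a Src-family kinase of myeloid cells, at 1808.6, 1983.2 and 1962.3 in ctrl and 2687.4 and 4181.7 in IR (0.81 ± 0.21 SE, limma adjusted p = 0.0497). Tyrobp, which encodes DAP12, was 1758.7, 1558.4 and 2255.1 in ctrl and 2595.8 and 3441.2 in IR (0.70 ± 0.21 SE, adjusted p = 0.0961). Syk itself overlapped, with 0.12 ± 0.19 (SE; adjusted p = 0.818). Of 7 ITIM phosphatases and adaptors 0 passed by limma, with 0 at an unadjusted p under 0.05, and their median was -0.20. Ptpn6, which encodes SHP-1, differed by 0.35 ± 0.19 (SE; adjusted p = 0.408), and Inpp5d, which encodes SHIP-1, one of -0.20 ± 0.20 (SE; adjusted p = 0.674).

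The mean log2(value + 1) of the 11 neutrophil markers was 9.50, 10.07 and 10.53 in ctrl and 11.18 and 12.11 in IR, a difference of 1.61. Set against that mean within each library, 44 of the 55 receptor genes lay lower in both IR libraries than in all ctrl libraries, 0 lay higher and 11 overlapped, and the median difference was -1.13. Since the markers differ so much, most genes lie lower on this scale: 70.6% of all genes tested did and 0.650% lay higher, with a median of -1.66. Of the 4 genes that rose, Siglece differed by 0.01 on this scale, Trem1 by -0.33, Cd300ld by -0.59 and Pirb by -0.77. Besides Siglece, Trem2 (0.14) was the other receptor gene above 0. The log2 ratio of Siglece was -0.95, -1.81 and -2.04 in ctrl and -1.74 and -1.43 in IR, so the groups overlapped. That of Trem1 was 1.98, 1.85 and 1.77 in ctrl and 1.59 and 1.48 in IR, lower in both IR libraries. The 11 markers themselves spread around their mean, with log2 fold changes from 1.03 to 2.32. Csf3r, a neutrophil marker, had the same log2 fold change as Trem1, 1.28. A marker that differs by less than 1.61 also lies below 0 on this scale. The part of neutrophil content in the receptor values was not tested.

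**Figure D4:**
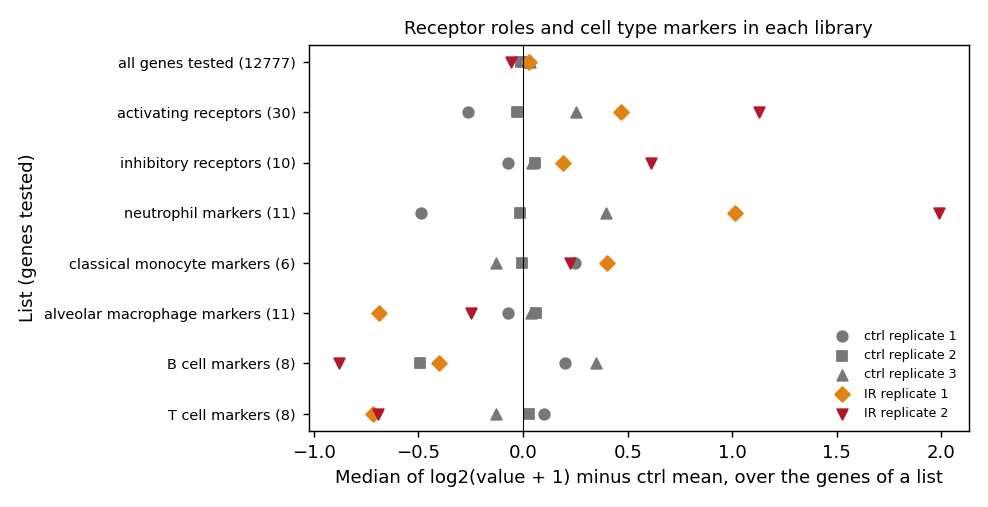
Median over each list of log2(value + 1) minus the ctrl mean (x axis) for all genes, the 2 receptor roles and 5 cell type marker lists, 1 point per library; the number of genes tested stands beside each list. Activating and inhibitory receptors and neutrophil markers are highest in IR replicate 2 and next highest in IR replicate 1, while T cell markers stand at -0.72 and -0.69 in the IR libraries. Classical monocyte markers stand at 0.40 and 0.23 in IR replicates 1 and 2 and at -0.13 to 0.25 in ctrl.

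Compared per kilobase of merged exon, the receptor genes with the highest mean levels in ctrl were Fcer1g (1687), Clec7a (1385) and Trem1 (1308), followed by Sirpa (704), Fcgr3 (666), Clec4d (639) and Cd300ld (605). Between single ctrl libraries the first 3 overlapped, as did the next 4. By IR means Trem1 (3219) stood first, before Fcer1g (2759) and Clec7a (2397). The libraries differed in this: Fcer1g (2403) stood above Trem1 (2337) in IR replicate 1, and Trem1 (4101) above Fcer1g (3114) in IR replicate 2. The IR mean of Sirpa (774) was below those of Fcgr3 (1117), Clec4d (1323) and Cd300ld (1232), as were its values in both IR libraries. In IR replicate 1 Clec4d (872) stood below Fcgr3 (989) and Cd300ld (1029).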

How the data were processed

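The deposited table is labelled as read counts but holds a signal with 1 decimal, so the authors' counts are taken to have been scaled; the sources used here do not say how, and whole reads could not be recovered. HISAT2, HTSeq and mm10 are named without versions or roles, per the submitters' processing notes. Libraries were made from total RNA with a stranded kit for small inputs, per the labels' protocols; the sources used here do not give the strand setting of the counting. Genes with at least 10 in at least 2 libraries (12777) were fitted as log2(value + 1) in R 4.3.3 using limma 3.58.1 and statmod 1.5.0, trend and robust estimation on, all 5 libraries and no covariate. P-values are two-sided, adjusted by Benjamini-Hochberg over all genes tested and called under 0.05. All fold changes refer to log2(value + 1), and low genes therefore appear less changed than they were. Scaled values give no counting error. The fit was tested on simulated data, where false calls were somewhat more frequent than the threshold states and most of the smaller changes were missed. There every library was given a spread smoothed from the ctrl libraries, and genes varied independently. The spread between the IR libraries was not used, so these outcomes need not hold for the real data. Replicate numbers follow accession order.

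The receptor genes, their roles, the marker and signalling lists and the ratio pairs were chosen with earlier results of these data known. Values in every library are given for genes called, for the 3 smallest p and 2 highest means of each family, and for others the text turns on. Of the 61 symbols, 56 matched GENCODE vM21 (GRCm38), which gave positions and merged exon lengths. Figures were drawn with matplotlib. Alternatives were another pseudocount, no filter, 2 scalings, no robust estimation and leaving out each library.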

Additional observations from a re-analysis of the deposited data

How the results depend on the processing

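No paired analysis was possible because the labels give no replicate numbers that the groups share. The count over all genes was 192 (146 higher and 46 lower, 76.0% higher); it was 18 with no filter on low values and 19 to 1006 with 1 library left out, and after scaling to library totals, which shifted the median log2 fold change by -0.12, 259 (55.2% higher). The receptor count of 4 was 0 with no filter by limma (24 at an unadjusted p under 0.05) and 0 to 19 with 1 library left out. The median of activating receptors ran from 0.47 to 1.13 with 1 library left out and that of inhibitory receptors from 0.19 to 0.61, and the latter was 0.84 with no filter, where Clec4a4 was added to the genes tested. With 1 library left out, the sign turned for 15 of the 55 receptor genes, none of them called and 10 of them without IR replicate 2. Among the genes chosen by p or mean these were Fcrl1 (-0.78 to 0.47, with 0.10 when ctrl replicate 3 was left out), Siglech (-0.035 to 0.35) and Sirpa (-0.046 to 0.30). The other causes were not tested. Scaled values give no exact sequencing depth. If the lowest value above 0 in a library stands for 1 read, the libraries held about 8.13e+06 to 1.06e+07 reads. Low genes such as Trem2, Fcrl5 and Clec1b are least certain.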
